A study of Mus musculus with 6 samples.

Results

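The 10 genes of Wnt reception in the mouse gut followed here were the frizzled receptors *Fzd1*, *Fzd5*, *Fzd6*, *Fzd7* and *Fzd8*, the co-receptors *Lrp5* and *Lrp6*, the receptor kinase-like gene *Ryk*, the R-spondin receptor *Lgr4* and the ligand gene *Wnt3*. They were taken by symbol from a table of 20409 features, and all 10 were among the 13346 features with enough counts to be tested. Villus epithelium of the duodenum was isolated from 3 double mutant mice (DMV) and 3 wild-type mice (WTV), and polyadenylated RNA of each mouse was sequenced as 1 library. The DMV mice carried *Smad4* fl/fl and *Ctnnb* exon3 fl/wt alleles with Villin-CreERT2, so that tamoxifen injections removed Smad4 and stabilised β-catenin throughout the intestinal epithelium, crypts included, and villi were taken a week after induction. The WTV mice were littermates that received no injection, so tamoxifen itself cannot be told apart from the mutations. Both groups came from a C57BL6-enriched background and held 1 male and 2 females each, matched for age, and the ages are not given in the sources used here. The males were WTV 1 and DMV 1. The comparison asks which parts of the Wnt reception machinery differed in message between villi with and without the double mutation.

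Wnt proteins are lipid-modified ligands that bind a frizzled receptor and, in the β-catenin branch, an Lrp5 or Lrp6 co-receptor, after which Dishevelled is recruited and β-catenin escapes degradation. Lgr4 and its relative Lgr5 bind R-spondins and so keep frizzleds at the surface, where the ligases Rnf43 and Znrf3 would otherwise remove them. In the small intestine, Wnt3 is made by Paneth cells and acts close to the crypt base, whereas most other Wnts of the gut come from the mesenchyme. Stabilised β-catenin acts downstream of all these receptors.

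Library totals ran from 19678507 to 26337318 counts. *Smad4* fell from 148 ± 30.3 to 31.7 ± 5.40 CPM (counts scaled by library total and TMM factor, SD, n = 3 mice in each group; log2FC, the log2 fold change of DMV over WTV, -2.22, adjusted p = 0.000145), lower in every mouse labelled DMV, while *Ctnnb1* gave 932 ± 53.6 and 841 ± 79.7 CPM (adjusted p = 0.359), a level that does not check the exon3 deletion. The 6 epithelial markers took 0.937 to 1.01% of counts in every mouse. Enterocyte markers took 4.42 to 4.93% in WTV and 2.68 to 2.76% in DMV, stem cell markers 0.00426 to 0.0133% and 0.0199 to 0.0268%, and cycling markers 0.00153 to 0.00448% and 0.0102 to 0.0135%. Of the enterocyte markers 6 of 8 were called lower (adjusted p under 0.05), against 17% of all tested genes. Only 3 of 7 stem cell markers were called higher, and 5 of 6 cycling markers, against 19.7%. WTV 1 stood apart, with 0.0114% of counts in goblet markers against 1.06% and 1.08% in the other WTV mice and 0.493 to 0.548% in DMV, and 0.000721% in Paneth markers against 0.0890% and 0.153%, so counts of called genes are given below without it as well. Without it 5 of 8 goblet markers were called lower and 1 higher, against 0 and 1 with it, and 4 of 7 stem cell markers were called higher. WTV 1 was also the only male of its group, so fits without it left only females in WTV. Immune markers took 0.00439 to 0.00941% in WTV and 0.00360 to 0.00499% in DMV. The part of these shifts in the receptor results was not tested, and in bulk samples fewer cells of a type cannot be told apart from less RNA per cell. Nothing in the labels says how the litters were assigned, so p-values measure the spread between these 6 mice.

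The receptors did not move together. *Ryk* and *Lgr4* rose in the DMV mice, *Lrp5*, *Fzd7* and *Fzd1* fell, and *Fzd5*, *Fzd6*, *Fzd8*, *Lrp6* and *Wnt3* did not pass an adjusted p of 0.05 (edgeR's quasi-likelihood test, Benjamini-Hochberg over all genes tested). The 2 of 10 that rose compare with 19.7% of all tested genes, and the 3 of 10 that fell with 17%, so the counts alone do not set the receptors apart. Values of the groups did not overlap for 4 genes higher in DMV, against 28.1% of all genes, and for 3 lower in DMV, against 24.2%. At an unadjusted p under 0.05 there were 7 genes of 10, against 46.6% of all genes in either direction. No gene reached a log2FC of 2 with an adjusted p under 0.05 by edgeR or by DESeq2, which 5.3% of all genes did by edgeR, and 1, *Fzd1*, passed a log2FC of 1. The median log2FC was -0.11 over the 10 genes and 0.02 over all genes tested. Scaling by library size alone raised the log2FC values of all genes by a median of 0.19, moved the share of calls that were higher from 53.7% to 72.4%, and left 3 of the 10 genes higher (*Fzd5*, *Lgr4*, *Ryk*) and 1 lower (*Lrp5*). Without WTV 1 there were 3 higher (*Fzd5*, *Lgr4*, *Ryk*) and 3 lower (*Fzd7*, *Fzd8*, *Lrp5*). Only *Lrp5* and *Ryk* among the 10 kept their calls with each mouse left out in turn.

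**Figure D1:**
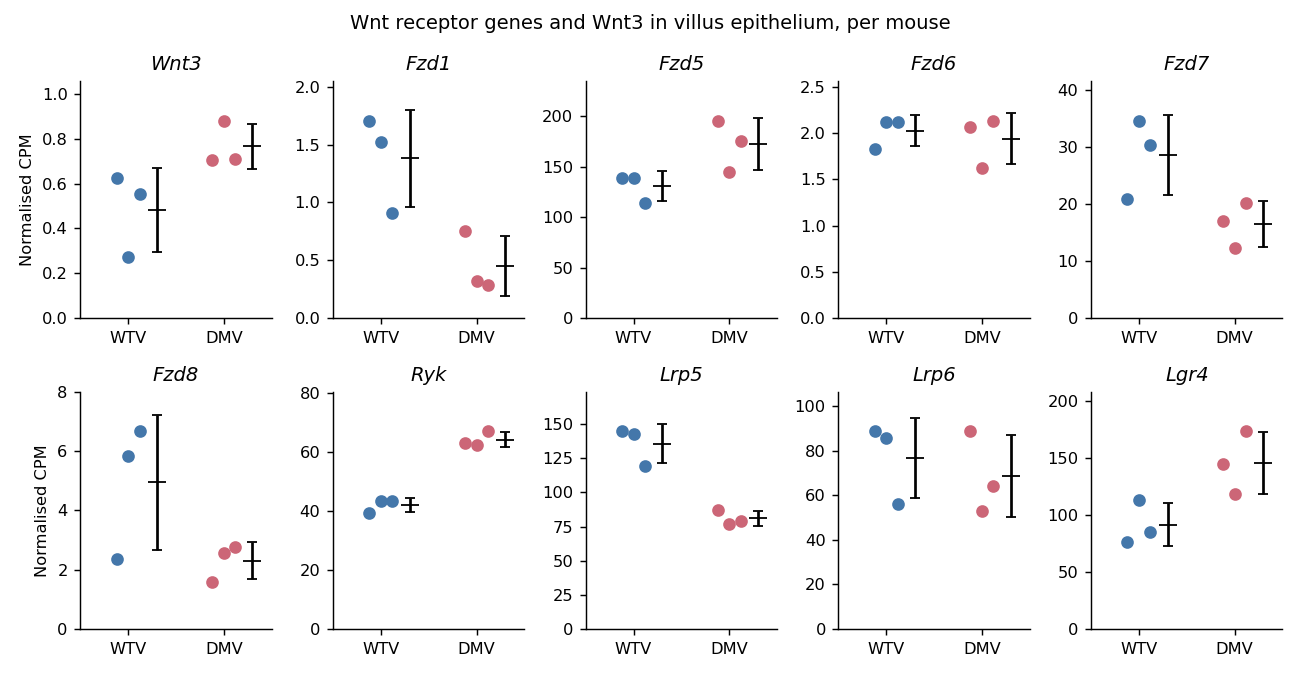
Level of each of the 10 genes in each mouse, as TMM-scaled CPM on a linear axis from 0 with its own range per gene. Points are mice (WTV blue, DMV red), and the bar beside them is the mean ± SD of 3 mice. *Ryk* lies at 39.3 to 43.4 CPM in WTV and 62.3 to 66.9 CPM in DMV, while the points of *Fzd6* and *Lrp6* overlap.

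**Figure D2:**
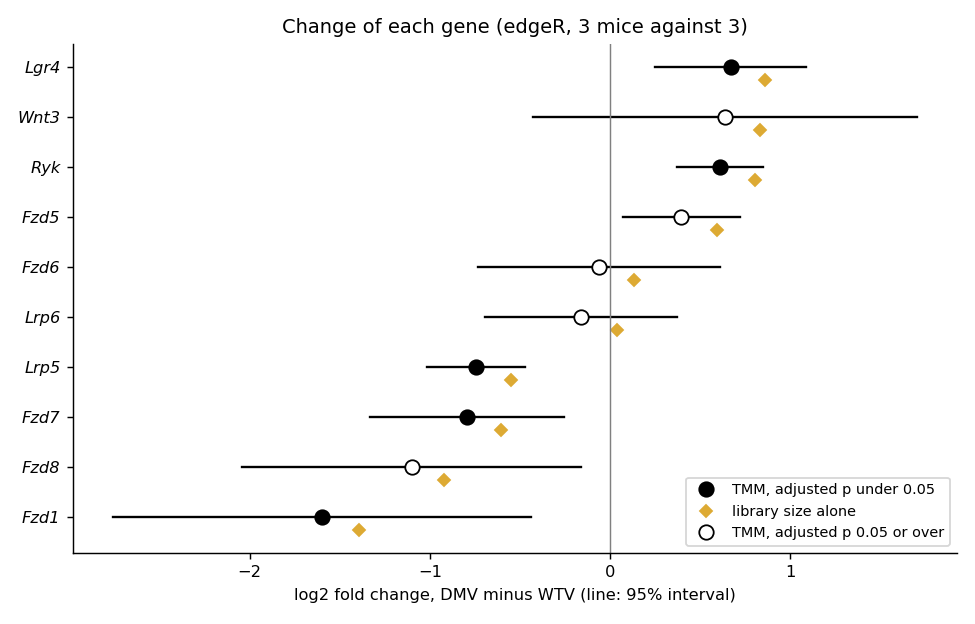
Log2 fold change (log2FC) of each gene, DMV minus WTV, from edgeR with TMM scaling (circles, filled where the adjusted p was under 0.05) with its 95% interval (line), beside the value with scaling by library size alone (diamonds). The diamonds lie to the right of every circle, and *Lrp6* and *Fzd6* cross 0 between the scalings.

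Promoter sequences of the called genes are shown so that the letters near their starts can be read beside their opposite changes. RefSeq (GRCm38.p6) gave an entry for 6 of the 10 genes, namely *Fzd1*, *Fzd5*, *Fzd7*, *Lgr4*, *Ryk* and *Wnt3*, and none for *Fzd6*, *Fzd8*, *Lrp5* or *Lrp6*. Each covers 250 bases before to 50 bases after the start. Capitals mark a match, on either strand, to a TCF/LEF motif (CTTTG with AA, with AT, with TA or with TT after it), to the SMAD motif GGCGCC, to the shorter SMAD motif GTCTG, or to the E-box CACGTG, and matches can overlap within and between motifs, although none marked here do. Sequences read in the direction of the gene, at chr9:102834670-102834969 (plus strand) for *Ryk*, chr2:109917397-109917696 (plus) for *Lgr4*, chr1:59481897-59482196 (plus) for *Fzd7* and chr5:4758167-4758466 (minus) for *Fzd1*.
Ryk, higher in DMV: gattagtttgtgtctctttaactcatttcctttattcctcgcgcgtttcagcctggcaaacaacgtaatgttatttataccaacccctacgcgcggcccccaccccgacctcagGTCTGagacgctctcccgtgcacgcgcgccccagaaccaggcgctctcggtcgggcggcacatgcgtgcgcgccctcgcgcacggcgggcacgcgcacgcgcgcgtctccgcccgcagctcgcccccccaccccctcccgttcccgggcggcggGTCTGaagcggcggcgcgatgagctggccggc
Lgr4, higher in DMV: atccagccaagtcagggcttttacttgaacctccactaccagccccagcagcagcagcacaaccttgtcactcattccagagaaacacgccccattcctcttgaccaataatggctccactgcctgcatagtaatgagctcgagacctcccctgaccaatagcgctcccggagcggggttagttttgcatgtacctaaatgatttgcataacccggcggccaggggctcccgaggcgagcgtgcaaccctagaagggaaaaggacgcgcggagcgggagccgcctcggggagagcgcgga
Fzd7, lower in DMV: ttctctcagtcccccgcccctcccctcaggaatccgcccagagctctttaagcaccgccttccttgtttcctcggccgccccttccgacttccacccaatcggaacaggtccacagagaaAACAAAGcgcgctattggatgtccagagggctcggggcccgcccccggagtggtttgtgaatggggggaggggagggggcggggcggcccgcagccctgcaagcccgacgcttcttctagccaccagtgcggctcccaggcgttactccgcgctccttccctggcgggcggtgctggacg
Fzd1, lower in DMV: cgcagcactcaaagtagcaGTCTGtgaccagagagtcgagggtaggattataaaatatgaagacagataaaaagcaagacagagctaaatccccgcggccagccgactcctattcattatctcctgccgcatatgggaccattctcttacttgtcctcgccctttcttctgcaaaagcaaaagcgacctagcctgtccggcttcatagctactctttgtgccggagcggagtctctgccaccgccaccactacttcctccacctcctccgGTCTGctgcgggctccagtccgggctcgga

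The *Ryk* and *Fzd1* promoters each held 2 GTCTG matches, although one gene rose and the other fell. A GTCTG match is common, in 49.6% of the 32851 mouse promoters of that length. *Fzd7* held 1 TCF/LEF match, as did *Wnt3*, against 16.9% of all promoters, and *Lgr4* and *Fzd5* held no match to any of these motifs. GGCGCC, in 11.9% of all promoters, and CACGTG, in 7.15%, were in none of the 6. A match is a string of letters and not a bound site.

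*Wnt3* (ENSMUSG00000000125; chromosome 11 of mm9, 103635464 to 103679271, plus strand) encodes the Wnt ligand of Paneth cells. It had 15, 5 and 11 counts in WTV 1 to 3 and 15, 19 and 15 counts in DMV 1 to 3, which is 0.625, 0.272 and 0.556 CPM against 0.704, 0.881 and 0.712 CPM. Every DMV value was above every WTV value, but the counts were few and only a few times the smallest level the depth could show (3 counts, 0.125 to 0.163 CPM, counting error only). The means were 0.484 ± 0.187 and 0.766 ± 0.10005 CPM (SD, n = 3), a log2FC of 0.64 (standard error (SE) 0.468, adjusted p = 0.317, edgeR). The 95% interval, -0.43 to 1.71, holds both a fall and a doubling of the level on this scale and does not show that the groups are alike. The summed share of Paneth markers overlapped between the groups in the same mice, at 0.000721 to 0.153% of counts in WTV and 0.0422 to 0.103% in DMV, with none of 7 genes called by edgeR and none at an unadjusted p under 0.05. Within that sum, 2 of the 7 markers were higher in every DMV mouse than in any WTV mouse, as *Wnt3* was. Of all tested genes, 28.1% were so. *Pla2g2a* had 0, 828 and 1817 counts in WTV and 5038, 15683 and 12493 in DMV, and *Mmp7* had 2, 134 and 223 against 256, 535 and 447. Most of the Paneth marker counts in each DMV mouse were of *Pla2g2a*, and few or none in each WTV mouse. The other markers overlapped, with log2FC values of -4.84 (*Ang4*), -2.58 (*Itln1*), -1.69 (*Defa24*), -1.31 (*Defa17*) and 0.40 (*Lyz1*). *Ang4* had 38, 6814 and 10537 counts in WTV against 244, 273 and 155 in DMV. Without WTV 1, 2 of the 7 Paneth markers were called higher and 2 lower, against 2783 and 2361 of the 13769 genes tested in that fit. In WTV 1, where these markers were nearly absent, *Wnt3* had the highest level of the WTV mice.

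Of 18 other Wnt ligand genes listed, 11 were in the table and 5 had enough counts to be tested. *Wnt11*, a ligand known for β-catenin-independent signalling, rose, from 0, 7 and 3 counts in WTV to 16, 38 and 20 counts in DMV (0.177 ± 0.192 to 1.15 ± 0.536 CPM, log2FC 2.75, SE 0.837, adjusted p = 0.0318, edgeR). It is a low-count gene, and the call was lost without WTV 3 (adjusted p = 0.0916), DMV 1 (0.0562), DMV 2 (0.126) or DMV 3 (0.0702). *Wnt2b*, *Wnt4*, *Wnt5b* and *Wnt6* overlapped between the groups, with log2FC values of 0.08 to 0.76. *Wnt4* varied widely within both groups, at 0.292, 4.19 and 3.89 CPM in the WTV mice and 4.22, 1.48 and 8.31 CPM in the DMV mice. The median of the 5 was 0.41, against 0.02 over all genes, and the 1 of 5 called higher compares with 19.7% of all genes, also without WTV 1. Markers of the mesenchyme, a source of Wnts in the gut, took 0.000178 to 0.000359% of counts in WTV and 0.000399 to 0.00105% in DMV. Of 12 such markers, 9 were in the table and none was at 0 in all mice. *Col1a1* had 0, 1 and 0 counts in WTV and 0, 8 and 0 in DMV. The smooth muscle genes *Acta2*, *Des* and *Myh11* gave 40, 35 and 47 counts in DMV 1 and at most 8 in any other mouse. The part of these markers in the ligand values was not tested.

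Porcupine (*Porcn*), which attaches the lipid to Wnts, had 2.27 ± 0.701 CPM in WTV and 3.31 ± 0.961 CPM in DMV (SD, n = 3; log2FC 0.55, adjusted p = 0.261, edgeR). *Wls*, the carrier that takes lipidated Wnts to the surface, had 2.50 ± 1.44 and 2.96 ± 0.489 CPM (log2FC 0.25, adjusted p = 0.702). Both overlapped between the groups, and both were low beside the frizzled *Fzd5*. Of 10 genes of Wnt maturation and release, all tested, 1 rose and 1 fell, with a median of 0.07, which is not above the 19.7% and 17% of all tested genes, and without WTV 1 the counts were 1 and 0. The one that rose was *Tmed5*, a cargo adaptor of early secretion, from 10.6 ± 2.14 to 18.8 ± 1.92 CPM (log2FC 0.83, adjusted p = 0.00879), called with each mouse left out. The one that fell was the retromer subunit gene *Vps26a* (log2FC -0.33, adjusted p = 0.0383), a call lost with any of the 6 mice left out (-0.38 to -0.27) and with library size alone (-0.13, adjusted p = 0.331).

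*Fzd5* (ENSMUSG00000045005; chromosome 1, 64777134 to 64784324, minus strand) was the most abundant frizzled in both groups. It had 139.0, 139.1 and 114 CPM in the WTV mice and 195, 145 and 176 CPM in the DMV mice. All DMV mice were above all WTV mice, DMV 2 by the least. The means, 131 ± 14.5 and 172 ± 25.5 CPM (SD, n = 3), gave a log2FC of 0.40 (SE 0.142, 95% interval 0.07 to 0.72, adjusted p = 0.0571, edgeR), just outside the threshold. The call was made without WTV 1 (0.44, adjusted p = 0.0495), without DMV 2 (0.50, 0.0310), with library size alone (0.59, 0.0110), without a low-count filter (0.41, 0.0469) and with sex as a covariate (0.39, 0.0463). The sign was positive in each of these and in every other fit run.

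*Fzd7* (ENSMUSG00000041075; chromosome 1, 59538991 to 59543791, plus strand) is the frizzled known for its part in intestinal stem cells. Its levels were 20.8, 34.7 and 30.3 CPM in WTV and 17.0, 12.2 and 20.2 CPM in DMV. WTV 1, at 20.8 CPM, came close to DMV 3, at 20.2 CPM, and the groups did not overlap. *Fzd7* fell from 28.6 ± 7.07 to 16.5 ± 3.99 CPM (log2FC -0.79, SE 0.236, adjusted p = 0.0299, edgeR). With single mice left out it stayed called 2 of 6 times, and the call was lost without WTV 2 (-0.63, adjusted p = 0.102), WTV 3 (-0.75, 0.0790), DMV 1 (-0.81, 0.0786) or DMV 2 (-0.62, 0.0906), and with library size alone (-0.60, 0.0835).

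*Fzd1* (ENSMUSG00000044674; chromosome 5, 4753842 to 4758216, minus strand) rests on few reads. Its counts were 41, 28 and 18 in WTV and 16, 7 and 6 in DMV, or 1.71, 1.52 and 0.910 CPM against 0.751, 0.325 and 0.285 CPM. The highest DMV mouse stayed below the lowest WTV mouse. The means were 1.38 ± 0.418 and 0.454 ± 0.258 CPM, a log2FC of -1.60 (SE 0.509, adjusted p = 0.0378, edgeR). The call was lost without WTV 1 (-1.41, adjusted p = 0.0733), WTV 2 (-1.53, 0.0983), DMV 2 (-1.41, 0.129) or DMV 3 (-1.35, 0.132) and with library size alone (-1.39, 0.0586), while leaving out DMV 1 gave -2.15. Over the 6 mice, log2 CPM of *Fzd1* ran closest to that of *Zbtb6* (Pearson r = 0.998), *Arcn1* (r = 0.997) and *Dcun1d1* (r = 0.993), a description that includes the difference between the groups.

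*Fzd8* (ENSMUSG00000036904; chromosome 18, 9212854 to 9216199, plus strand) had 2.37, 5.82 and 6.67 CPM in WTV and 1.596, 2.55 and 2.75 CPM in DMV. WTV 1 lay among the DMV mice, and the other WTV mice lay above them. Its log2FC was -1.10 (SE 0.413, adjusted p = 0.0665, edgeR), with means of 4.96 ± 2.28 and 2.30 ± 0.618 CPM. Without WTV 1 the gene was called lower (-1.44, adjusted p = 0.00338), as it was by DESeq2 (-1.12, 0.0302) and with sex as a covariate (-1.03, 0.0185). *Fzd6* (ENSMUSG00000022297; chromosome 15, 38837879 to 38869732, plus strand), a frizzled known from planar polarity, had 1.83, 2.12 and 2.12 CPM in WTV and 2.07, 1.62 and 2.14 CPM in DMV. These overlapped, at 2.03 ± 0.167 and 1.94 ± 0.278 CPM. The log2FC was -0.06, with a 95% interval of -0.73 to 0.61 (adjusted p = 0.891), and 0.13 with library size alone.

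The table held 9 frizzled genes, and the 4 outside the list were *Fzd2*, *Fzd3*, *Fzd4* and *Fzd9*. *Fzd4* (ENSMUSG00000049791; chromosome 7, 96552876 to 96558620) had 18.7, 21.2 and 14.5 CPM in WTV and 13.0, 6.96 and 8.97 CPM in DMV, with no overlap. It fell, like *Fzd7*, with a log2FC of -0.91 (SE 0.248, adjusted p = 0.0205, edgeR), a call lost without WTV 2 (-0.79, adjusted p = 0.0739), DMV 2 (-0.72, 0.0594) or DMV 3 (-0.86, 0.0737) and with library size alone (-0.71, 0.0510). *Fzd2* had 0, 0 and 8 counts in WTV and 8, 9 and 5 in DMV, *Fzd3* had 1 count in each WTV mouse and 4, 2 and 2 in DMV, and *Fzd9* had at most 1 count in any mouse. None of these 3 had enough counts for the test. *Fzd10* was not analysed here.

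The summed frizzled message did not separate the groups, while a larger share of it was *Fzd5* in every DMV mouse. Levels of different genes were compared as RPKM, which is CPM divided by the length of the gene's exons in kilobases. The summed RPKM of all 9 frizzled genes was 31.1, 35.7 and 29.6 in WTV and 36.7, 26.8 and 33.6 in DMV. The groups overlapped, at 32.1 ± 3.19 and 32.3 ± 5.06 (SD, n = 3; log2 difference of the means 0.01, exact two-sided permutation p = 1), and the difference was 0.20 with library size alone (p = 0.4 by the same exact test). Within that sum, *Fzd5* held 64.7, 56.4 and 55.7% in WTV and 77.1, 78.2 and 75.7% in DMV. Its mean share was 58.9 ± 4.99% in WTV and 77.0 ± 1.26% in DMV, with no overlap and a narrower spread in DMV. The share of *Fzd7* was 18.5 ± 3.98% in WTV and 10.6 ± 1.69% in DMV, that of *Fzd4* 15.2 ± 1.69% and 7.98 ± 1.43%, and that of *Fzd1* 0.978 ± 0.276% and 0.313 ± 0.141%. All 3 were lower in every DMV mouse than in any WTV mouse. *Fzd8* (4.63 ± 2.24% and 2.20 ± 0.804%) and *Fzd6* (1.55 ± 0.178% and 1.48 ± 0.0901%) overlapped. A share moves when any other member of the sum moves, so these shares are not separate results.

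**Figure D3:**
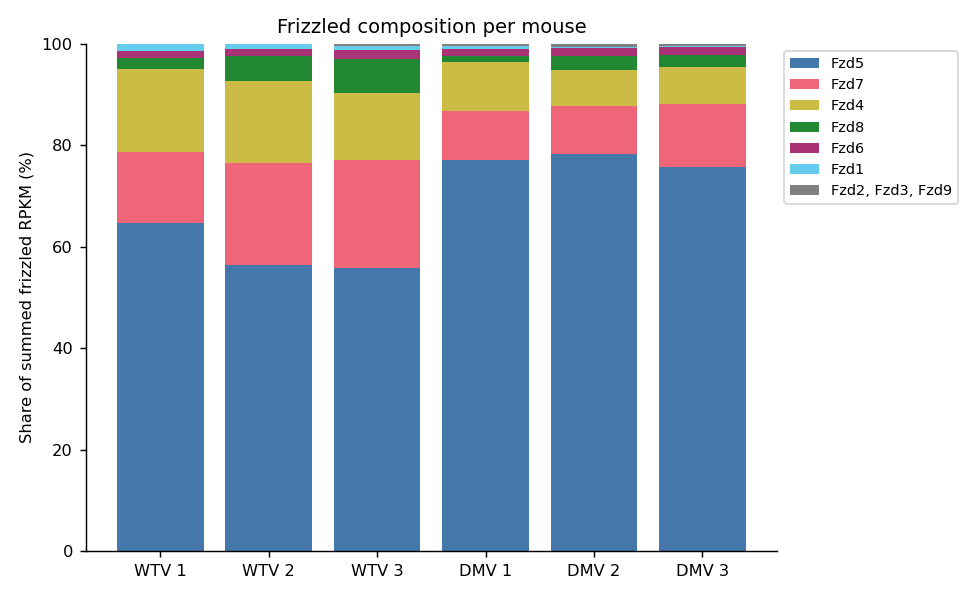
Share of each frizzled gene in the summed frizzled RPKM of each mouse, stacked to 100% on a linear axis. The *Fzd5* segment reaches 55.7 to 64.7% in the 3 WTV mice and 75.7 to 78.2% in the 3 DMV mice.

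*Ryk* (ENSMUSG00000032547; chromosome 9, 102737250 to 102810637, plus strand) encodes a Wnt receptor with a kinase-like domain that lacks kinase activity. Its levels were 39.3, 43.4 and 43.3 CPM in WTV and 63.0, 62.3 and 66.9 CPM in DMV, with a wide gap between the groups. *Ryk* rose from 42.0 ± 2.34 to 64.1 ± 2.47 CPM (SD, n = 3; log2FC 0.61, SE 0.106, adjusted p = 0.00292, edgeR). The call was made with each mouse left out (0.56 to 0.63) and under all 8 other choices of test, scaling, filter and covariate (0.58 to 0.80). Of the other receptors with kinase-like domains, *Ptk7* had 0, 7 and 7 counts in WTV and 17, 23 and 27 in DMV (log2FC 2.14, adjusted p = 0.0630, and called without WTV 1 at 1.499, adjusted p = 0.0446, by limma-voom at 2.94, 0.0452, with library size alone at 2.32, 0.0472, and with sex as a covariate at 2.30, 0.0371) and *Ror2* did not separate (0.01, adjusted p = 0.994). *Ror1* was not analysed here.

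Of the co-receptors, *Lrp5* was called lower and *Lrp6* was not. *Lrp5* (ENSMUSG00000024913; chromosome 19, 3584825 to 3686564, minus strand) had 145, 143 and 119 CPM in WTV and 87.1, 77.0 and 79.0 CPM in DMV. Each DMV mouse was well below the lowest WTV mouse. *Lrp5* fell from 136 ± 14.3 to 81.0 ± 5.35 CPM (log2FC -0.74, SE 0.118, adjusted p = 0.00202, edgeR), and was called lower with each mouse left out (-0.83 to -0.69) and under all 8 other choices (-0.77 to -0.55). *Lrp6* (ENSMUSG00000030201; chromosome 6, 134396494 to 134516983, minus strand) had 88.8, 85.6 and 56.2 CPM in WTV and 88.8, 52.9 and 64.2 CPM in DMV, which overlapped widely. Its means were 76.8 ± 17.99 and 68.6 ± 18.4 CPM, and the log2FC of -0.16 (95% interval -0.70 to 0.37, adjusted p = 0.616) became 0.04 with library size alone. The log2 ratio of *Lrp6* to *Lrp5* RPKM within a mouse, which no scaling changes, was -1.63, -1.67 and -2.01 in WTV and -0.90, -1.47 and -1.22 in DMV. Every DMV ratio was higher, by a mean of 0.57 on the log2 scale (exact two-sided permutation p = 0.1, the smallest that 3 mice against 3 can give, and 0.125 adjusted over the 5 single values tested in this way).

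*Mesd* (listed in the annotation as Mesdc2), the chaperone that folds Lrp5 and Lrp6, rose from 12.0 ± 0.483 to 24.1 ± 0.777 CPM (SD, n = 3; log2FC 1.01, SE 0.125, adjusted p = 0.000663, edgeR), with 11.4 to 12.3 CPM in WTV and 23.2 to 24.6 CPM in DMV. *Apcdd1*, a membrane inhibitor of Wnt reception, fell, with 81, 23 and 13 counts in WTV and 4, 0 and 3 counts in DMV (log2FC -3.95, adjusted p = 0.0103). Both calls held with each mouse left out, and the size of the *Apcdd1* change, -4.53 to -3.05 in those fits, rests on few reads in DMV. *Kremen1* and *Kremen2*, receptors of the Dkk inhibitors, had log2FC values of 0.37 (adjusted p = 0.121, called only with library size alone, at 0.0349) and 0.65 (0.128).

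*Lgr4* (ENSMUSG00000050199; chromosome 2, 109757804 to 109854414, plus strand) encodes an R-spondin receptor with a wider range of expression than Lgr5. Its levels were 76.7, 113 and 85.5 CPM in WTV and 145, 119 and 174 CPM in DMV. WTV 2 and DMV 2 came close, and the groups did not overlap. *Lgr4* rose from 91.7 ± 18.9 to 146 ± 27.5 CPM (log2FC 0.67, SE 0.184, adjusted p = 0.0217, edgeR), a call lost without WTV 3 (0.62, adjusted p = 0.0730), DMV 1 (0.68, 0.0556) or DMV 3 (0.53, 0.0801). Over the 6 mice its log2 CPM ran closest to that of *Mtr* (Pearson r = 0.992), *Gm10159* (r = 0.991) and *Hyal1* (r = 0.988), which again includes the difference between the groups. *Lgr5*, the crypt stem cell receptor, was far lower, with 4, 17 and 16 counts in WTV and 74, 50 and 58 in DMV. The log2 ratio of *Lgr5* to *Lgr4* RPKM was -9.48, -7.69 and -7.48 in WTV and -6.18, -6.47 and -6.77 in DMV, higher in every DMV mouse by a mean of 1.75 (exact permutation p = 0.1, adjusted 0.125). The *Lgr4* level exceeded the *Lgr5* level in every mouse. WTV 1 set the low end, and without it the difference was 1.12.

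*Rnf43* and *Znrf3*, the ligases that Lgr4 and R-spondin hold back, rose as *Lgr4* did. *Rnf43* had 50.1, 63.3 and 60.7 CPM in WTV and 112, 93.9 and 113 CPM in DMV (log2FC 0.87, SE 0.132, adjusted p = 0.00162, edgeR), called with each mouse left out. *Znrf3* had 1.83, 1.74 and 2.93 CPM and 5.87, 4.59 and 4.46 CPM (1.20, SE 0.294, adjusted p = 0.0135), a call lost without DMV 1 (1.07, adjusted p = 0.0517). Both are also known targets of β-catenin. Of 16 genes of receptor turnover and trafficking, 12 were in the table and 7 were tested, of which 3 rose (*Mesd*, *Rnf43*, *Znrf3*) and 1 fell (*Apcdd1*), with a median of 0.65, where 19.7% of all tested genes rose and 17% fell. Without WTV 1, 4 of 8 tested rose and 1 fell. *Rspo4* had at most 1 count in any mouse, and *Rspo1*, *Rspo2* and *Rspo3* were not analysed here.

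Within-mouse ratios set the frizzleds side by side without regard to scaling. The log2 ratio of *Fzd7* to *Fzd5* RPKM was -2.21, -1.48 and -1.38 in WTV and -2.99, -3.04 and -2.60 in DMV. Every DMV ratio lay below every WTV ratio, with a mean difference of -1.18 (exact two-sided permutation p = 0.1, adjusted 0.125 over the 5 values). For *Fzd6* to *Fzd5* the ratios were -5.48, -5.27 and -4.99 in WTV and -5.80, -5.72 and -5.60 in DMV, a mean difference of -0.46 (exact p = 0.1, adjusted 0.125), again without overlap. The *Fzd6* level itself differed by -0.06 and the *Fzd5* level by 0.40 on the log2 scale. With 1 mouse left out in turn the *Fzd7* ratio difference stayed between -1.44 and -1.03, and that of *Lrp6* to *Lrp5* between 0.42 and 0.71.

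**Figure D4:**
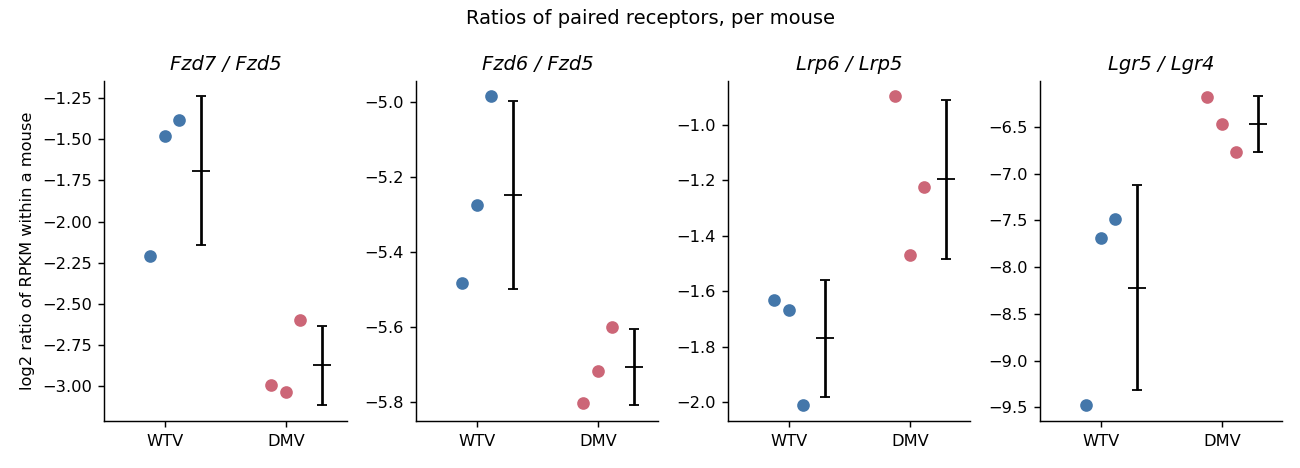
Log2 ratio of the RPKM of paired receptor genes within each mouse, with points for mice (WTV blue, DMV red) and the mean ± SD of 3 mice beside them; each panel has its own axis, which does not start at 0. No panel has overlapping groups, and WTV 1 lies lowest of the WTV mice for *Fzd7* / *Fzd5*, *Fzd6* / *Fzd5* and *Lgr5* / *Lgr4*.

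By length-corrected level (RPKM), the order of the 10 genes changed at its top. In WTV, *Lrp5* led with 26.2, above *Fzd5* (18.9), *Lgr4* (15.6) and *Ryk* (12.9), then *Lrp6* (7.82), *Fzd7* (5.96), *Fzd8* (1.48), *Fzd6* (0.496), *Fzd1* (0.315) and *Wnt3* (0.157). The ranges of the WTV mice overlapped between *Fzd5* and *Lgr4*, between *Lgr4* and *Ryk*, and between *Lrp6* and *Fzd7*, so those neighbours are not ordered. In DMV, *Fzd5* (24.9), *Lgr4* (24.8) and *Ryk* (19.6) stood above *Lrp5* (15.7), followed by *Lrp6* (6.99), *Fzd7* (3.43), *Fzd8* (0.687), *Fzd6* (0.476), *Wnt3* (0.249) and *Fzd1* (0.104). Neighbouring ranges overlapped there between *Fzd5* and *Lgr4*, between *Lgr4* and *Ryk*, and between *Fzd8* and *Fzd6*. *Lrp5* was thus the highest of the 10 in WTV and behind 3 of them in DMV, and *Wnt3* and *Fzd1* exchanged the last places.

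Of 18 genes of receptor-proximal signalling, all in the table, 16 were tested, and 2 rose and 3 fell, with a median of -0.05 (19.7% of all tested genes rose and 17% fell, so these counts do not set the list apart). The counts were the same without WTV 1, and with RLE factors 2 rose and 5 fell. *Ccdc88c*, which encodes the Dishevelled-binding protein Daple, rose from 91.3 ± 15.5 to 178 ± 10.7 CPM (SD, n = 3; log2FC 0.96, adjusted p = 0.00137, edgeR), and *Caprin2*, known to promote Lrp phosphorylation, rose by 0.92 (adjusted p = 0.00893). The Dishevelled genes *Dvl1* (117 ± 18.3 to 78.7 ± 8.97 CPM, -0.57, adjusted p = 0.0154) and *Dvl3* (-0.53, 0.0155) fell, while *Dvl2* was at 0.05 (adjusted p = 0.883). The third gene that fell was *Gna11* (-0.41, 0.0229), a G protein subunit. With library size alone all 3 lower calls were lost (adjusted p = 0.0537 for *Dvl1*, 0.0762 for *Dvl3* and 0.136 for *Gna11*) and 3 genes were called higher. Leaving out a mouse ended the call of *Dvl3* (without WTV 2, adjusted p = 0.0536, or DMV 2, 0.0543) and of *Gna11* (without WTV 2, 0.0638, DMV 1, 0.0675, or DMV 3, 0.0791), and not that of *Dvl1*, *Ccdc88c* or *Caprin2*.

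Of 18 planar polarity partners, which act with frizzleds in the β-catenin-independent branch, 12 were tested, and 2 rose and 4 fell, with a median of -0.14, beside the 19.7% and 17% of all tested genes. The counts were the same without WTV 1, and 1 rose and 2 fell without WTV 2 or without DMV 3. *Celsr1*, an atypical cadherin of planar polarity, rose from 2.73 ± 1.62 to 9.03 ± 1.64 CPM (SD, n = 3; log2FC 1.74, adjusted p = 0.00964, edgeR). *Daam2*, a formin bound by Dishevelled, rose by 0.99 (adjusted p = 0.0383), a call lost without WTV 2 (0.99, adjusted p = 0.0910), DMV 1 (0.93, 0.103), DMV 2 (1.05, 0.0778) or DMV 3 (0.99, 0.0947). *Dact2*, a Dishevelled-binding antagonist, had a log2FC of -1.23 (adjusted p = 0.00149), and *Invs* one of -0.83 (adjusted p = 0.00444), and both fell in every fit that left out a mouse. With library size alone, *Dact2* and *Invs* remained called lower and the other 2 did not. Of 15 secreted Wnt inhibitors, 8 were in the table and 2 were tested. *Igfbp4*, a secreted protein that also binds Wnt receptors, rose from 1.15 ± 0.562 to 9.20 ± 1.44 CPM (log2FC 3.02, adjusted p = 0.000747), and *Dkk4* overlapped (0.51, adjusted p = 0.528). Of 12 other receptors listed, 9 were in the table and 4 were tested, with *Lgr5* higher (log2FC 2.19, adjusted p = 0.0139, lost without DMV 1 at 0.0528) and *Fzd4* lower, and without WTV 1 there were 2 higher and 1 lower of 5 tested.

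**Figure D5:**
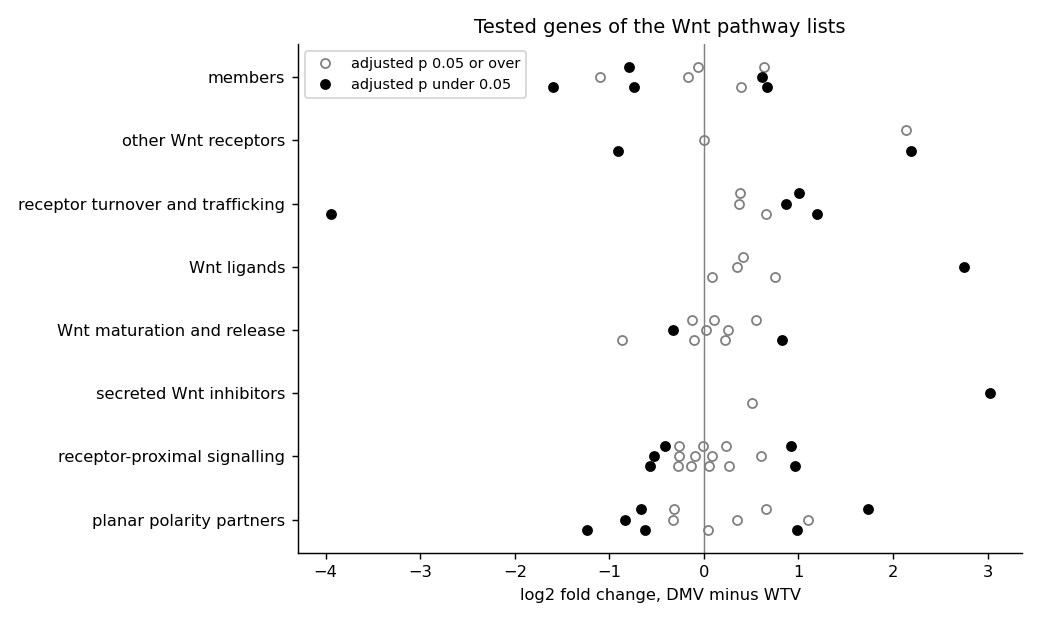
Log2 fold change, DMV minus WTV, of every tested gene in the 8 lists, with 1 circle per gene, filled where the adjusted p was under 0.05 (edgeR). The row called members holds the 10 genes, and every list but the ligands and the secreted inhibitors has filled circles on both sides of 0.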

How the data were processed

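Cleaned paired-end reads were mapped to mm9 by the authors with HISAT2, and featureCounts gave the raw counts per gene that they deposited, 1 column per mouse, not normalized and not pooled. The strand setting and the rule for reads matching several genes are not given in the sources used here. No exon of the 10 genes overlaps another annotated gene. Of 20073 Ensembl identifiers, 20032 were found in GENCODE vM1 (mm9), which gave symbols, positions and exon lengths, and 336 numbered transcripts in the table have no name.

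From the counts, genes were kept by filterByExpr, scaled by TMM and tested with edgeR 4.0.16 (glmQLFit, robust, and glmQLFTest, R 4.3.3), with Benjamini-Hochberg adjustment over 13346 genes. The standard error (SE) was taken as log2FC over the root of the quasi-likelihood F. RPKM used the summed exon length. Single values used exact permutation tests. Alternatives were DESeq2 1.42.0 (the tool of the study's methods), limma-voom (limma 3.58.1), RLE factors, library size alone, other low-count filters, a replicate block, sex as a covariate and each mouse left out. For pathway genes outside the 10 they were added after the data were seen. The members and gene lists were chosen with earlier results of these data known. Every member is named. Of each other list, up to 2 called genes per direction with the smallest adjusted p are named, with the other frizzleds, *Lgr5*, *Rnf43*, *Znrf3*, *Porcn* and *Wls*. Further pathway genes were named after their values were seen (*Gna11*, *Dvl2*, *Kremen1*, *Kremen2*, *Ptk7*, *Ror2*, *Rspo4*, *Dkk4*, *Celsr3*, *Daam1*, *Reck*, *Adgra2* and the 4 other tested Wnt ligands). The same holds for the Paneth markers and for *Col1a1*, *Acta2*, *Des* and *Myh11*. The code was tested on simulated data. Depth ran from 19678507 to 26337318 counts. Promoter sequences are of another build (GRCm38.p6) than the counts and were matched by symbol.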

Additional observations from a re-analysis of the deposited data

How the results depend on the processing

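The number of the 10 genes called higher, 2, ran from 1 to 3 with 1 mouse left out, and the number called lower, 3, from 1 to 3. DESeq2 called 2 higher and 4 lower, and with sex as a covariate there were 3 and 4. With library size alone 1 gene was called lower, and the summed frizzled level differed by 0.20 on the log2 scale. The number past a log2 fold change of 2, 0, ran from 0 to 1 with a mouse left out (*Fzd1* at -2.15 without DMV 1) and was 1 at a log2 fold change of 1.

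Replicate numbers are shared between the groups in the labels, but same-numbered mice did not deviate together (correlations over genes of 0.02, -0.11 and 0.01 for numbers 1, 2 and 3), so the numbers were not taken as pairs. With a replicate block, 1 gene was called higher (*Ryk*), 3 lower (*Fzd1*, *Fzd8*, *Lrp5*), while *Fzd7* (-0.79, adjusted p = 0.0566) and *Lgr4* (0.67, 0.0512) were not called, and 3834 of all genes against 4905 without it; not every mouse correlated best with its own number.

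Every called gene among the 10 kept its direction in each fit that tested it; a filter of CPM over 1 in 3 mice left *Fzd1* and *Wnt3* untested. For *Wnt3* and *Fzd1*, with at most 41 counts in a mouse, depth limits the precision, and with 3 mice against 3 no exact test of a single value can pass 0.05.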

Other observations

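*Reck*, a membrane partner of Adgra2 in Wnt7 reception, was in the table but had too uneven counts to be tested: 133 in WTV 1, 1 and 2 in WTV 2 and WTV 3, and 0 in every DMV mouse. *Adgra2* (listed as Gpr124) had 5, 11 and 9 counts in WTV and 9, 19 and 6 in DMV. The values of *Reck* rest on WTV 1, the mouse that also stood apart in goblet and Paneth markers.

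The difference between DMV and WTV was also compared between the sexes with an interaction term in edgeR, with 1 male in each group. No gene of the 10 passed an adjusted p of 0.05, and the lowest was 0.392, for *Fzd7*. The lone males give this test little precision, and that of WTV was WTV 1, which stood apart in goblet and Paneth markers.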
